A study of Homo sapiens with 38 samples.

Results

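The genes described here encode the nuclear share of the oxidative phosphorylation system, and the question was where 2 transcription factors and 1 histone mark lay on them in a stimulated T-cell line. Members were the protein-coding RefSeq gene records of GRCh38.p14 whose symbols start with NDUFA, NDUFB, NDUFC, NDUFS, NDUFV, UQCR or ATP5 or with COX4 to COX8, together with SDHA, SDHB, SDHC, SDHD and CYC1. There were 97 such genes among 20046 protein-coding records on the listed chromosomes. By complex, 38 belonged to complex I, 4 to complex II, 10 to complex III, 17 to complex IV and 20 to complex V, and the prefixes also took in 8 complex I assembly factors (NDUFAF1 to NDUFAF8). The rule also takes in ATP5IF1, an inhibitor of the ATP synthase, the readthrough records ATP5MF-PTCD1 and NDUFC2-KCTD14, and the gene copies UQCRHL and ATP5MGL. The complex IV-associated subunit formerly called NDUFA4 carries the symbol COXFA4 in this table and is not a member.

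Oxidative phosphorylation takes place in the inner mitochondrial membrane. Complexes I and II feed electrons from NADH and succinate to ubiquinone, complex III passes them to cytochrome c, complex IV reduces oxygen, and complex V uses the proton gradient to make ATP. A few subunits are encoded in mitochondrial DNA, and all others come from nuclear genes on many chromosomes. T cells raise both glycolysis and respiration when they are activated. BHLHE40 is a basic helix-loop-helix factor that is induced by T-cell activation, binds the E-box CACGTG and is known in tissue-resident T cells for its part in mitochondrial metabolism. GATA3 is a zinc-finger factor of the T lineage, and acetylation of lysine 27 on histone H3 (H3K27ac) marks active promoters and enhancers.

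The data were ChIP-seq peak lists, in which DNA pulled down with an antibody was sequenced and places with many reads were listed as lines, each with a start, an end, a summit and a signal value. The series held 38 samples in 19 groups of 2, of which 3 groups were used: BHLHE40, GATA3 and H3K27ac in Jurkat cells, a human T-cell leukaemia line. All 3 groups were wild-type Jurkat cells with the control lentivirus (Ctrl-LV) and no added BHLHE40, stimulated with the phorbol ester PMA at 50 ng/ml and the calcium ionophore ionomycin at 500 ng/ml, for 5 h per the sample labels and 2 h per the treatment protocol. Jurkat is 1 leukaemic line, so the lists describe that line and not primary T cells. Each group had 1 list for both of its samples, so there is no value per sample, no spread between replicates and no test over samples. Intervals below are 95% Wilson intervals on shares of genes, and they cover counting of genes only, since genes are not replicates and neighbours can share a line.

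The lists held 26205 BHLHE40, 29009 GATA3 and 113570 H3K27ac lines. T-lineage genes were marked: CD3D, CD3E, CD3G, CD28 and LCK each had lines in all 3 lists, as did 38.4% of all protein-coding genes. TAL1, an oncogene of T-cell leukaemia, also had lines in all 3. Its H3K27ac signal of 3.07 was below the list median of 3.31. LYZ and ALB, genes of myeloid cells and liver, had none. CD14 had 1 H3K27ac line with a signal of 2.57, and MS4A1 had 2 GATA3 lines and none of the other lists.

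Most respiratory genes carried BHLHE40 and H3K27ac. Within the gene record plus 2 kb on each side, a BHLHE40 line lay in 81 of the 97 genes, or 83.5% (74.9 to 89.6), and the background over all protein-coding genes was 58.8%. H3K27ac was present at 90 of 97, or 92.8% (85.8 to 96.5), against a background of 75.0%. GATA3 was present at 58 of 97, or 59.8% (49.8 to 69.0), against a background of 44.4%. Lines of all 3 lists met in 53 genes, or 54.6% (44.7 to 64.2), against 38.4%. The members' records are short, with a median of 9936 bp against 24103 bp. Among records between the members' 10th and 90th length percentiles, BHLHE40 was at 88.3% of members against 56.4% of protein-coding genes. GATA3 was at 63.6% against 34.7% there, and H3K27ac at 98.7% against 71.1%.

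In these record windows the higher share for GATA3 was not seen with stricter lines. The score of a factor line runs from 540 to 1000 and rises as the line repeats better between the 2 samples. With lines scored at least 830, GATA3 was present at 36.1% of members and 36.9% of all protein-coding genes, and at starts, within 1 kb, at 26.9% (18.3 to 37.7) and 16.8%. Lines of all 3 lists, with that score for the factors and H3K27ac lines kept from a −log10 q of 5 upward, met in 29.9% and 29.0% of record windows. BHLHE40 with the same score stayed at 77.3% against 53.3%.

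The lines were few per gene. Of the 97 members, 60 had exactly 1 BHLHE40 line and 21 had several, and 50 had exactly 1 GATA3 line and 8 had several. The median gene had 1 BHLHE40, 1 GATA3 and 2 H3K27ac lines, against 1, 0 and 2 over all protein-coding genes. The strongest BHLHE40 line of a member had a median signal of 9.68, with a range of 3.92 to 30.4, below the median of 12.1 over all protein-coding genes with a line. For GATA3 the median was 8.58 (4.42 to 35.0) against 14.0. For H3K27ac it was 8.03 (3.31 to 20.0) against 6.35. For the strongest line within 1 kb of a start the gaps were narrower. There the medians were 9.57 (interval 7.97 to 12.5) against 10.9 for BHLHE40, 7.97 (7.12 to 8.89) against 9.32 for GATA3 and 7.92 (7.39 to 8.70) against 6.99 for H3K27ac, with 95% intervals from the ordered values. The BHLHE40 background lay inside the members' interval, the GATA3 background above it and the H3K27ac background below it. Signal values are the authors' enrichment measure and were compared within a list only.

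**Figure D1:**
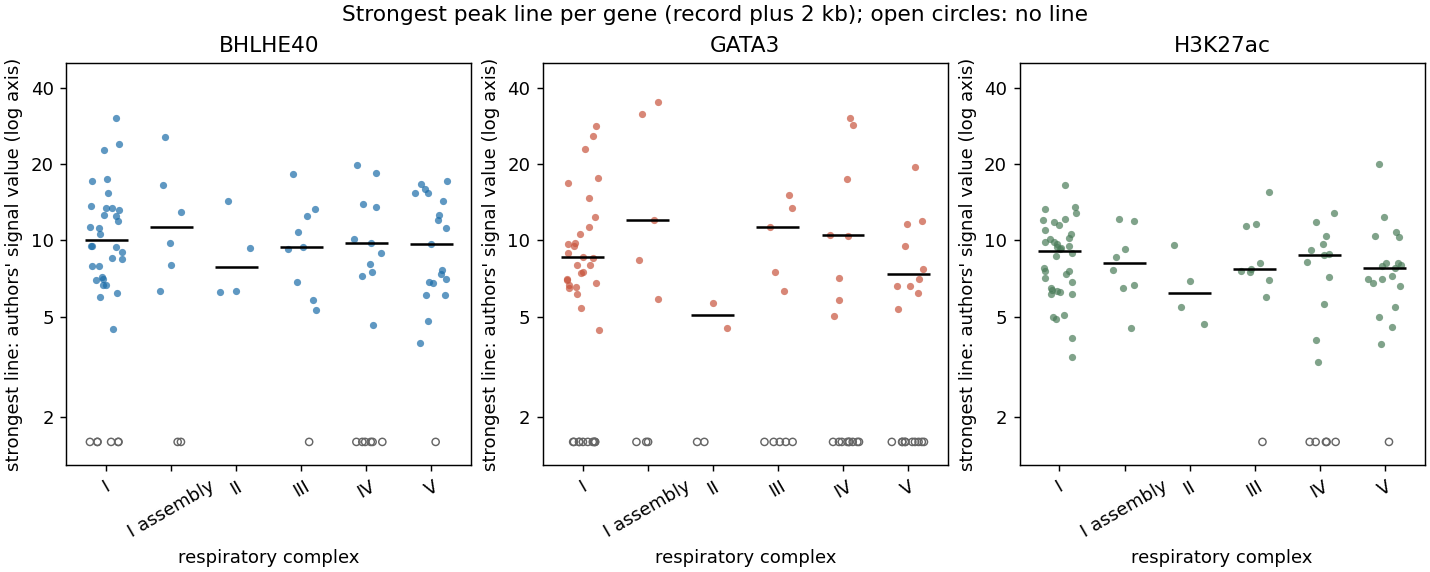
Signal value of the strongest line in the record plus 2 kb (vertical log axis) for each of the 97 genes by complex, with 1 panel per list, black bars at the median of genes with a line and open circles for genes with no line. The open circles of H3K27ac lie in complexes III, IV and V, and those of GATA3 are found in every complex.

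At transcription starts the difference from other genes was wider than in the record windows of all members, on a smaller set of genes. For GATA3 it was no wider than among records of similar length, where the shares were 63.6% and 34.7%. RefSeq promoter entries gave a start for 78 members and 15841 protein-coding genes. Within 1 kb of a start, H3K27ac lay at 74 of 78 members, or 94.9% (87.5 to 98.0), against a background of 57.6%. BHLHE40 lay at 66 of 78, or 84.6% (75.0 to 91.0), against 49.6%, and GATA3 at 41 of 78, or 52.6% (41.6 to 63.3), against 23.7%. At the starts of the 78 members, 40 genes had all 3 lists, 26 had H3K27ac and BHLHE40, 7 had H3K27ac alone, 1 had H3K27ac and GATA3, and 4 had none. None of the 78 had either factor at a start without H3K27ac there, and over all protein-coding genes 96.5% of those with BHLHE40 and 96.5% of those with GATA3 at a start also had H3K27ac there, so this is near the background.

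Much of that difference is shared with other acetylated promoters. Among the 9129 protein-coding genes with H3K27ac at a start, the background was 83.0% for BHLHE40 and 39.7% for GATA3. The 74 members with H3K27ac there had BHLHE40 in 89.2% (80.1 to 94.4) and GATA3 in 55.4% (44.1 to 66.2). With lines scored at least 830 the members had BHLHE40 in 82.4% against 75.1%, and GATA3 in 28.4% against 28.1%. The BHLHE40 background lay inside the members' interval, and the GATA3 background lay under it without the score minimum and inside it with the minimum.

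Other housekeeping groups give the scale. The 69 mitochondrial ribosomal protein genes with a listed start had BHLHE40 at 94.2%, GATA3 at 52.2% and H3K27ac at all 69. The 70 cytosolic ribosomal protein genes had BHLHE40 at 97.1%, GATA3 at 63 genes and H3K27ac at 97.1%, and 19 genes of glycolysis and glucose uptake had 94.7%, 47.4% and 94.7% in the same order. Respiratory genes therefore had the lowest BHLHE40 share of the 4 groups (89.2% without the tissue-limited relatives described with complex IV), with overlapping intervals. Their GATA3 share was near that of the mitochondrial ribosomal genes and far below that of the cytosolic ribosomal genes. No test was made of these differences, because the lists give no replicate.

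**Figure D2:**
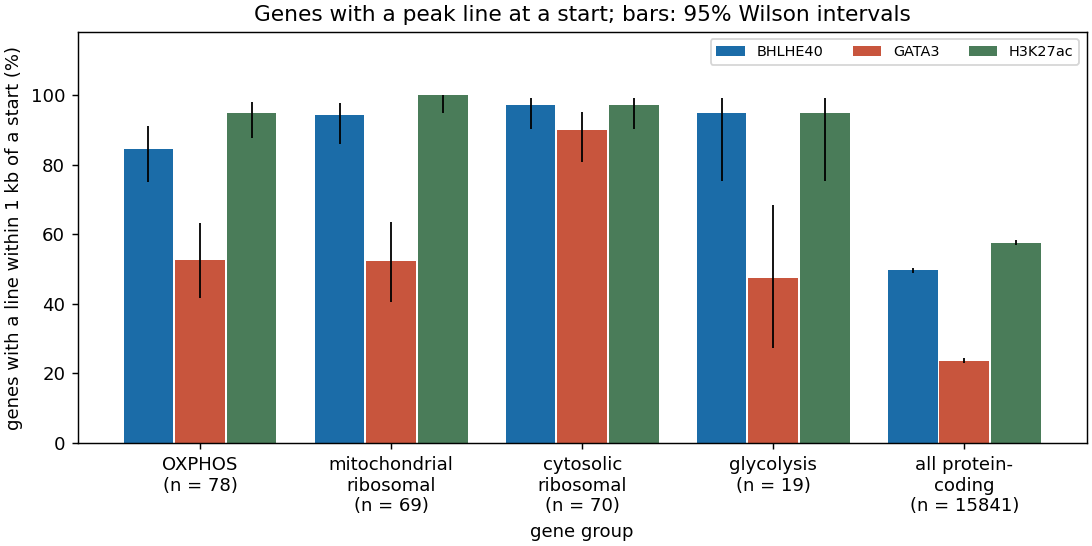
Percent of genes with a line within 1 kb of a listed start (vertical axis) for 5 gene groups and 3 lists, with error bars giving the 95% Wilson interval. The oxidative phosphorylation genes stand at 84.6%, 52.6% and 94.9%, above all protein-coding genes at 49.6%, 23.7% and 57.6%, and the GATA3 bar of the cytosolic ribosomal genes, at 63 of 70, is the tallest GATA3 bar.

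Most BHLHE40 summits sat just upstream of the start and most H3K27ac summits just downstream. Of the 66 members with BHLHE40 at a start, the summit of the strongest line was upstream in 52, or 78.8% (67.5 to 86.9), and its median position was 83 bp upstream. Over all protein-coding genes 68.1% were upstream, with a median 75 bp upstream. The members' BHLHE40 summits were also closer, with 89.4% within 250 bp of a start against 75.0%. H3K27ac summits of members lay downstream, at a median of 120 bp, with 24 of 74 upstream (32.4%, 22.9 to 43.7, against 40.8%). Their share within 250 bp was 81.1% against 59.5%. GATA3 summits lay on both sides, with 23 of 41 upstream (56.1%, 41.0 to 70.1, against 50.1%) and a median 29 bp upstream.

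**Figure D3:**
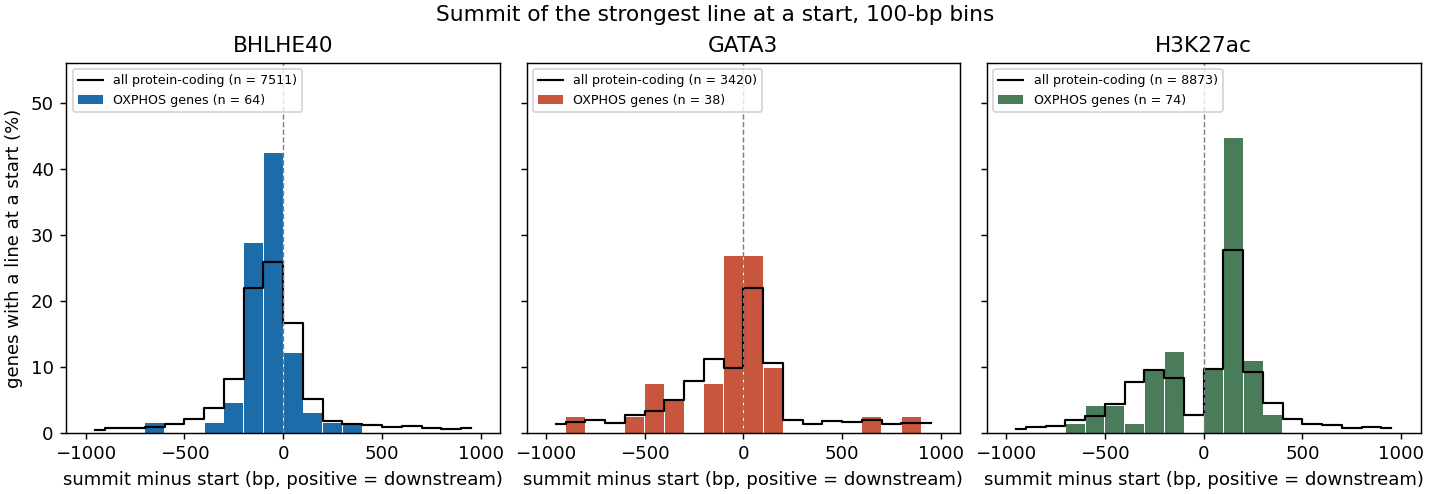
Distance of the strongest line's summit from the nearest listed start in 100-bp bins (horizontal axis, positive is downstream) against the percent of genes with a line at a start, with coloured bars for members and the black line for all protein-coding genes; summits farther than 1 kb are not drawn. BHLHE40 bars peak just upstream of the start and H3K27ac bars in the bin 100 to 200 bp downstream.

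Many of these starts lie near another gene record. Strand was not used in this count, and the readthrough record NDUFC2-KCTD14 counted NDUFC2 as its neighbour. Another protein-coding record lay within 1 kb of a start for 38 of 78 members, or 48.7%, against 24.4% of all protein-coding genes, and a line there cannot be given to 1 gene of the pair. Examples are ATP5PF with GABPA, SDHD with TIMM8B, NDUFS6 with MRPL36, NDUFA7 with RPS28 and UQCRH with LRRC41. These 5 pairs were picked after their values were seen. For genes with no such neighbour the share with BHLHE40 at a start was 87.5% of members against 43.8%. H3K27ac summits were upstream of the start in 16 of 36 members with a neighbour (44.4%) and in 8 of 38 without (21.1%), and the intervals of 29.5 to 60.4 and 11.1 to 36.3 overlap.

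In complex I, the NADH dehydrogenase, H3K27ac was found at 38 of 38 genes, BHLHE40 at 32 and GATA3 at 28. Counts per complex are for record windows unless a start is named. There 75.0%, 58.8% and 44.4% of all protein-coding genes had H3K27ac, BHLHE40 and GATA3. The GATA3 share was 73.7% in complex I and 62.5% in its assembly factors. In complexes II to V it was 47.1% to 50.0%, near the 44.4%. At starts it ran from 42.9% to 71.4% over these 6 groups, against 23.7%. The 7 catalytic core genes, which carry the flavin and the iron-sulfur clusters or contact them, had BHLHE40 in 7, H3K27ac in 7 and GATA3 in 5. NDUFS7, a core subunit with an iron-sulfur cluster, had the strongest BHLHE40 line at a start of any member, at 22.6, with its summit 164 bp upstream. Its GATA3 line had a signal of 5.39 and its H3K27ac line 9.40. NDUFV2, another iron-sulfur core subunit, had the highest BHLHE40 signal of all members at 30.4, but that line (chr18:9135597-9137202) lay outside its record and over that of its neighbour ANKRD12. Its summit was 33973 bp from the start of NDUFV2, where another BHLHE40 line had a signal of 15.3.

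The other high values of complex I also fell partly on neighbours. For NDUFB10, an accessory subunit, the BHLHE40 line of 24.0 (chr16:1961715-1966201) and the GATA3 line of 28.3 (chr16:1963691-1965348) overlapped the ribosomal protein gene RPS2, with summits 18 bp apart. The GATA3 line lay wholly outside the NDUFB10 record, which ends at 1961975. NDUFB4, also accessory, had the strongest H3K27ac of the complex, at 16.5, which is rank 377 of the list, with a BHLHE40 signal of 8.50 and a GATA3 signal of 11.3. NDUFA10 had its H3K27ac line at its start (7.56) and its factor lines deep inside a long record. Its GATA3 line of 25.8 was 51779 bp and its BHLHE40 line of 9.39 was 97805 bp downstream of the start, and it had 10 H3K27ac lines. NDUFS4, an accessory subunit, held 14 H3K27ac lines in a record of 122700 bp. It had a BHLHE40 line of 4.47 and a GATA3 line of 7.54 at its start, and a further GATA3 line of 7.96 at 56438 bp downstream.

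Complex I and its assembly factors supplied 7 of the 8 genes with H3K27ac but no BHLHE40 at a start. They were NDUFA8, NDUFA9, NDUFA10, NDUFB8, NDUFC2-KCTD14, NDUFAF2 and NDUFAF7, and the remaining one was COX6B1. Complex I and its assembly factors also made up 33 and 7 of the 74 members with H3K27ac at a start. BHLHE40 was missing there in 8 of the 74 members and in 1554 of 9129 protein-coding genes. The strongest H3K27ac signals of the 8 genes were 3.45 at NDUFB8, 4.51, 5.07, 5.60, 6.15, 6.47, 7.56 and 11.9 at NDUFAF7. Only NDUFAF7 lay above the members' median of 8.03. NDUFA8 (5.07), NDUFB8, NDUFC2-KCTD14 and COX6B1 had neither factor in their windows. NDUFA9 had a GATA3 line of 9.50 that was 15142 bp downstream of its start.

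The assembly factors build complex I without staying in it. H3K27ac lay at 8 of 8, BHLHE40 at 6 and GATA3 at 5. NDUFAF7, a methyltransferase that acts on a complex I subunit, had the highest GATA3 signal of all members, 35.0 (chr2:37240907-37241686), 9579 bp downstream of its start, and 3 further GATA3 lines but no BHLHE40 line. NDUFAF6 had the most lines: 3 BHLHE40, 2 GATA3 and 29 H3K27ac, in a record of 222698 bp against the members' median of 9936 bp. Its strongest factor lines were coincident inside the record, BHLHE40 at 25.6 (chr8:95093134-95093576) and GATA3 at 31.4 (chr8:95093142-95093511), with summits 13 bp apart. NDUFAF2, with a record of 207822 bp, had 12 H3K27ac lines and no BHLHE40 line. Its GATA3 lines of 11.6 and 12.0 were 27264 and 137867 bp downstream. NDUFAF5 showed the closest factors, with both summits 91 bp upstream of its start at signals of 16.5 and 8.38.

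Complex II, succinate dehydrogenase, had H3K27ac and BHLHE40 at 4 of 4 genes and GATA3 at 2. SDHA, the flavoprotein, had signals of 6.30 for BHLHE40, 5.64 for GATA3 and 6.89 for H3K27ac. That GATA3 line (chr5:217506-218102) lay outside the SDHA record and over that of its neighbour CCDC127. The H3K27ac line overlapped both records. SDHB, the iron-sulfur subunit, had the highest BHLHE40 signal of the complex, 14.3 with a summit 90 bp upstream, an H3K27ac signal of 5.47 and no GATA3 line. Of the membrane anchors, SDHC had 6.23 for BHLHE40, 9.58 for H3K27ac and no GATA3 line. SDHD had 9.31 for BHLHE40, 4.49 for GATA3 and 4.68 for H3K27ac, with factor summits 12 bp apart. The GATA3 values of SDHA and SDHD were at the low end of the members' range.

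In complex III, the cytochrome bc1 complex, BHLHE40 and H3K27ac lay at 9 of 10 genes and GATA3 at 5, and the gene without any line was the copy UQCRHL. CYC1, cytochrome c1, had 2 BHLHE40 lines with a highest signal of 9.23, an H3K27ac signal of 7.54 and no GATA3 line. UQCRH, the hinge protein, had the highest BHLHE40 signal at 18.2. UQCR10, a small subunit, had the highest GATA3 signal at 15.1 with its summit 160 bp downstream of the start. UQCRC2, a core protein, led H3K27ac at 15.5, with 13.3 for BHLHE40 at its start. It had a GATA3 line of 8.86 at its start and another of 13.4 that was 5778 bp downstream.

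Complex V, the ATP synthase, had BHLHE40 and H3K27ac at 19 of 20 genes and GATA3 at 10. All protein-coding genes had 58.8%, 75.0% and 44.4%, so the GATA3 share of 50.0% was near the background. Without a line was ATP5MGL, a copy of the membrane subunit gene ATP5MG. The 5 genes of the catalytic F1 head had H3K27ac and BHLHE40 in 5 and GATA3 in 4. ATP5F1A, the alpha subunit, had the strongest GATA3 line at 19.5, with BHLHE40 at 12.6 and summits 569 bp apart. ATP5ME, a small membrane subunit, had the highest H3K27ac signal of all members, 20.0 or rank 159, a BHLHE40 signal of 15.9 and no GATA3 line. That H3K27ac line (chr4:674455-675335) overlapped the neighbour MYL5 and not the ATP5ME record itself. ATP5PD, in the peripheral stalk, had the highest BHLHE40 signal at 17.1 with a summit 127 bp upstream. ATP5MF-PTCD1 had 12 H3K27ac lines along its long readthrough record and shared its strongest lines of 15.4 (BHLHE40) and 7.06 (H3K27ac) with ATP5MF.

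Complex IV, cytochrome c oxidase, had the most genes without lines: BHLHE40 lay at 11 of 17, GATA3 at 8 and H3K27ac at 12. These shares of 64.7%, 47.1% and 70.6% were near the 58.8%, 44.4% and 75.0% of all protein-coding genes. COX5A, a matrix-side subunit, had the highest BHLHE40 signal at 19.8, and COX8A, a small membrane subunit, the highest H3K27ac signal at 12.8. COX7A2L, a supercomplex factor picked after its values were seen, had the highest GATA3 signal of any line that reached within 1 kb of a member's start, at 28.4, with its summit 1300 bp downstream.

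Complex IV is known for paralogues, with a widely expressed form and a relative limited to muscle, testis, lung or other tissues, and the pairs separated in the H3K27ac list. COX4I1, COX6A1, COX6B1, COX7A2, COX7B and COX8A, the widely expressed forms, had H3K27ac signals of 10.4, 8.18, 5.60, 11.8, 4.04 and 12.8. Of their relatives COX4I2 had 1 line with a signal of 3.31, and COX6A2, COX6B2, COX7A1, COX7B2 and COX8C had none. BHLHE40 followed in 5 of 6 widely expressed forms, with signals from 7.24 at COX7B to 13.9 at COX7A2, and was missing at COX6B1. GATA3 lay at COX6A1 (10.5), COX7A2 (7.12) and COX7B (5.79) and not at COX4I1, COX6B1 or COX8A. Of the 6 members with no line in any list, 4 were such relatives (COX6A2, COX6B2, COX7A1 and COX8C) and 2 were the copies UQCRHL and ATP5MGL.

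COX7B2 was the exception among the relatives. It had a GATA3 line of 30.3 (chr4:46869065-46869611) and a BHLHE40 line of 4.64, with summits 34 bp apart and 39900 bp downstream of the start for GATA3, inside a record of 174419 bp. No H3K27ac line lay in its window, and it was the sole member with factor lines and no H3K27ac line.

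**Figure D4:**
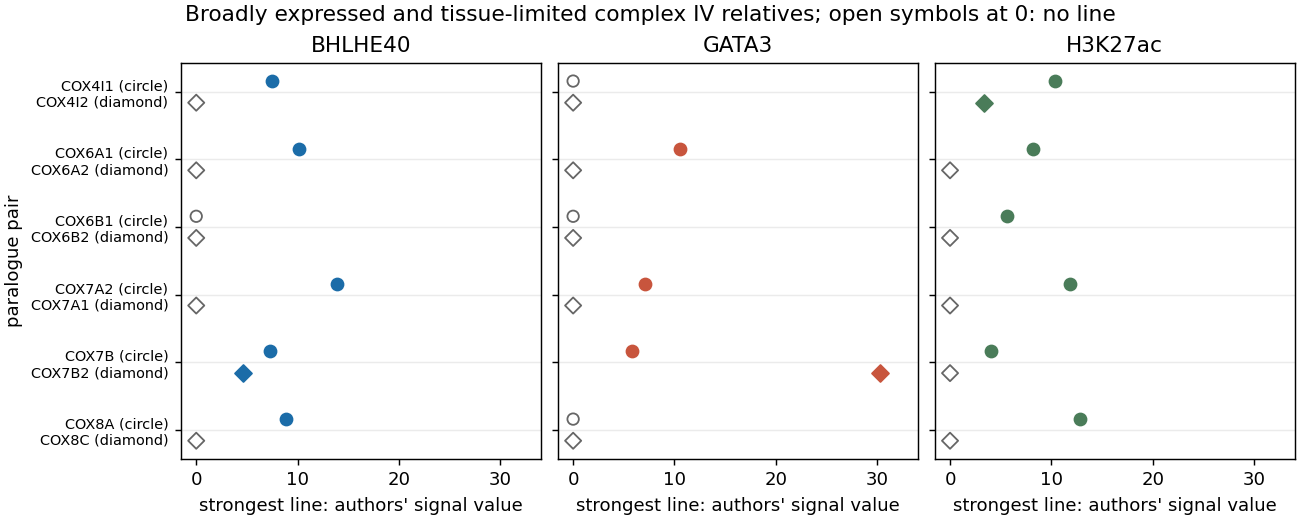
Strongest signal value (horizontal axis) in each list for 6 complex IV pairs, with circles for the widely expressed form, diamonds for its relative and open symbols at 0 for no line. All 6 circles are filled for H3K27ac, where 1 diamond is filled at 3.31, and the single diamond far to the right is the GATA3 line of COX7B2 at 30.3.

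The promoters of 1 pair show how far these sequences differ. The 250 bases before the start are given from RefSeq (GRCh38.p14), for COX6A1 at chr12:120437863-120438112 on the plus strand and for COX6A2 at chr16:31428361-31428610 on the minus strand. Capitals mark matches, on either strand, to the cores of 4 factors known at respiratory genes: GCATGCGC of NRF1, AAGATGG of YY1, CCGGAAG of ETS factors such as GABPA, and AAGGTCA of the receptor ERR alpha.
COX6A1: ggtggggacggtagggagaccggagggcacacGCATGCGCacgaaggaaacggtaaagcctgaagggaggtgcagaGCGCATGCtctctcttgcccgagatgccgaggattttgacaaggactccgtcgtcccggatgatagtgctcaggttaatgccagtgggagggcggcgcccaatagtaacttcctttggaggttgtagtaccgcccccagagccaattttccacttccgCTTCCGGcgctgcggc
COX6A2: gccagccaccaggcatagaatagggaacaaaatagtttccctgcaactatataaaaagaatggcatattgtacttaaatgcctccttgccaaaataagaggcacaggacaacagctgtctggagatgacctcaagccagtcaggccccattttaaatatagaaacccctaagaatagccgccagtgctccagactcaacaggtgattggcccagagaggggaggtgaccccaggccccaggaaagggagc
COX6A1 held 2 NRF1 matches and 1 ETS match and had BHLHE40, GATA3 and H3K27ac signals of 10.1, 10.5 and 8.18, with factor summits 27 bp apart. COX6A2, the form of heart and skeletal muscle, held none of the 4 and had no line.

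The same cores were searched on both strands in 300 bases (250 before and 50 after the start) of 78 members and 15841 protein-coding genes. A gene with several listed starts was searched at 1 of them, the start nearest the upstream end of its record. BHLHE40 and H3K27ac were counted at any listed start. ETS matches were found in 22 members or 28.2% (19.4 to 39.0) against 14.1%, YY1 in 17 or 21.8% (14.1 to 32.2) against 6.36%, and NRF1 in 15 or 19.2% (12.0 to 29.3) against 4.28%. ERR matches were found in 9 or 11.5% (6.19 to 20.5) against 3.21%. At least 1 of the 4 was present in 42 members, or 53.8% (42.9 to 64.5), against 24.8% of all and 33.5% of the genes with H3K27ac at a start. Among those acetylated genes the single shares were 21.3% for ETS, which lies inside the members' interval, and 8.15% for YY1, 6.34% for NRF1 and 2.56% for ERR, which lie under it. The GC box GGGCGG of SP factors was in 57.7% of members (46.6 to 68.0), 58.3% of all genes and 70.0% of the genes with H3K27ac at a start. The median GC content was 61.0% in members and 62.7% in all. Of the 66 members with BHLHE40 at a start, 39 (59.1%, 47.0 to 70.1) had 1 of the 4 cores, and of the 12 without it 3 did (25.0%, 8.89 to 53.2). These intervals overlap. Over all protein-coding genes the shares were 35.2% and 14.6%.

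**Figure D5:**
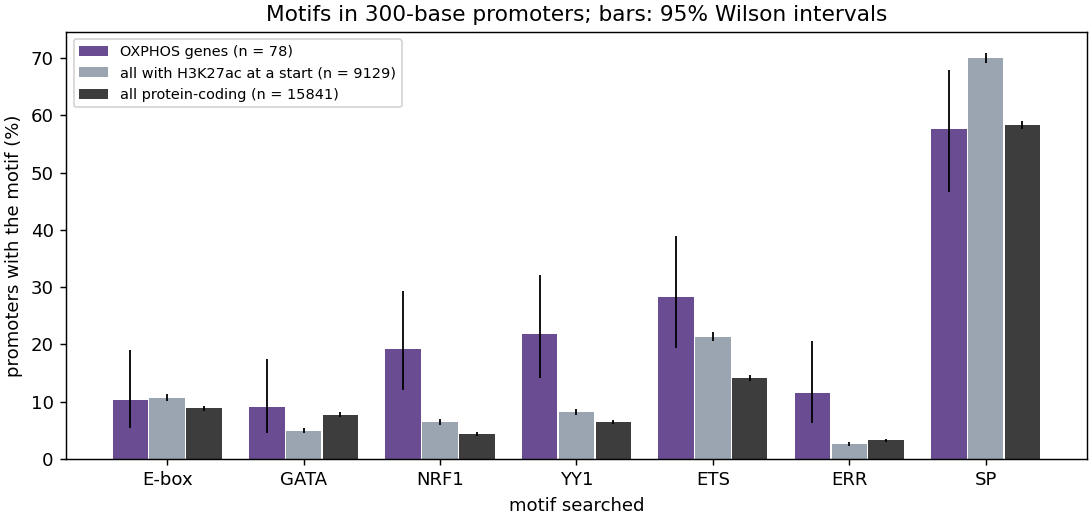
Percent of 300-base promoters with each core (vertical axis) for the 78 members, for the 9129 genes with H3K27ac at a start and for all 15841 protein-coding genes, with 95% Wilson intervals. Members stand highest for NRF1, YY1, ETS and ERR, with an ETS interval that holds the share of the genes with H3K27ac at a start, and they stand below those genes for the SP box.

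SDHB and ATP5PF are shown because each held several of the 4 cores beside a BHLHE40 line. The 250 bases before the start are at chr1:17054033-17054282 (minus strand) for SDHB and chr21:25735055-25735304 (minus strand) for ATP5PF, with capitals as for the COX6 pair.
SDHB: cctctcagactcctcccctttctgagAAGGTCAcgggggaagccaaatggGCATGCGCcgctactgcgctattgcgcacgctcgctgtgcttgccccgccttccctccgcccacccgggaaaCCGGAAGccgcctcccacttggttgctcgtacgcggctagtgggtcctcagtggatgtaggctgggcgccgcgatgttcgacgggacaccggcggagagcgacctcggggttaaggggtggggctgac
ATP5PF: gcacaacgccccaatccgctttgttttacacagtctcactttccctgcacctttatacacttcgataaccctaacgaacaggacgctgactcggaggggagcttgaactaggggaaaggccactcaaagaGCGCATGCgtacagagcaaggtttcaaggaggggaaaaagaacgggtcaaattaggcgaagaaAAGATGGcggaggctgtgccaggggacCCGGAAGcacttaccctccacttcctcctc
In SDHB the BHLHE40 summit was 35 bp from the ETS match and 106 bp from the NRF1 match. In ATP5PF, the coupling factor 6 of the ATP synthase stalk, the record of GABPA lies within 1 kb of this start. GABPA encodes an ETS factor that itself acts on respiratory genes. The BHLHE40 line of ATP5PF (16.7) had its summit 90 bp downstream of this start and 117 bp from the ETS match, with GATA3 at 5.36 and H3K27ac at 10.4.

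The E-box was not more common at respiratory promoters. CACGTG was found in 8 members, or 10.3% (5.29 to 19.0), against 8.83% of all, and the GATA core AGATAA in 7 members, or 8.97% (4.42 to 17.4), against 7.66%. The 8 E-box genes were NDUFS7, UQCR11, NDUFAF5, NDUFA11, ATP5ME, ATP5PB, NDUFA7 and ATP5MC1, and each had BHLHE40 at a start. This made 8 of 66 members with BHLHE40 there (12.1%, 6.27 to 22.1) and 0 of 12 without, where the interval reaches 24.2%. Over all protein-coding genes the shares were 11.4% and 6.30%. So 58 of the 66 BHLHE40-marked members had no CACGTG in the 300 bases searched. BHLHE40 lay within 1 kb of the searched start in 62 of the 66, and for the rest it lay at another listed start. The distance from summit to E-box ran from 20 bp at NDUFS7 to 141 bp at ATP5MC1, with a median of 56.5 bp.

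Of these E-box promoters, 4 with high BHLHE40 signals are given with CACGTG in capitals, as 250 bases before the start. They lie at chr19:1383657-1383906 (plus strand) for NDUFS7, chr19:5903791-5904040 (minus) for NDUFA11, chr20:13784778-13785027 (plus) for NDUFAF5 and chr4:674277-674526 (minus) for ATP5ME.
NDUFS7: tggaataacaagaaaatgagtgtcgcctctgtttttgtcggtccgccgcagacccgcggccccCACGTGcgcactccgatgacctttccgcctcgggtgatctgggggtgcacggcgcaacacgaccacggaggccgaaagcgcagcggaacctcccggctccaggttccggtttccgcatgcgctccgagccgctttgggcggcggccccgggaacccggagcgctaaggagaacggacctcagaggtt
NDUFA11: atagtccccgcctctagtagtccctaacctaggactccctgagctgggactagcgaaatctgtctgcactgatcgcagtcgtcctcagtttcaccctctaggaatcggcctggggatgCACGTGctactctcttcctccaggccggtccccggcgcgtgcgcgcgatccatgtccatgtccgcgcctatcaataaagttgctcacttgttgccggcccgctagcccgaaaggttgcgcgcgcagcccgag
NDUFAF5: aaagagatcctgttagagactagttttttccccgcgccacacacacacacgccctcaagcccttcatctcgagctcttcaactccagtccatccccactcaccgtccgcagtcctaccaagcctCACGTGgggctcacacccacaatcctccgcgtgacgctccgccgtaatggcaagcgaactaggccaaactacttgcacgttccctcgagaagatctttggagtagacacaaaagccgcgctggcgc
ATP5ME: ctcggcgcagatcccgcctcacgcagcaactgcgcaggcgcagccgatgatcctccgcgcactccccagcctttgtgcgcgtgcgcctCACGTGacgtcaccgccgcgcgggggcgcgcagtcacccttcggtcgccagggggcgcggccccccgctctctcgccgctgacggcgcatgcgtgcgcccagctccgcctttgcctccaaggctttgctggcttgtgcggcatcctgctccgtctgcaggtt
The BHLHE40 signals were 22.6, 17.4, 16.5 and 15.9 in that order, and the summits lay 20, 53, 32 and 60 bp from the middle of the E-box. NDUFA11 is a membrane-arm subunit of complex I, and its other signals were 7.52 for GATA3 and 9.21 for H3K27ac. GATA3 was listed at NDUFS7, NDUFA11 and NDUFAF5 and not at ATP5ME.

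Where both factors were present, their lines usually coincided. Both lay in the windows of 54 members, and the strongest lines overlapped in 39, or 72.2%, against 55.9% of the 7787 protein-coding genes with both. Such a share depends on window length. The members' records are shorter, with a median of 9936 bp against 24103 bp, and the shares were not compared at similar record length. The median distance between overlapping summits was 82 bp in members and 50 bp in all, and 15 of the 39 were at most 50 bp apart. The closest were NDUFAF5 at 0 bp, ATP5MC1 at 1 bp (signals 6.79 and 6.57), SDHD at 12 bp, NDUFAF6 at 13 bp and NDUFS3 at 16 bp (11.3 and 7.02). Apart from NDUFAF6, which has no listed start, these pairs of summits lay within 250 bp upstream of a start.

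GATA3 lines farther from a gene's own listed starts had a higher median signal than those near them. Starts of other genes were not used, so in each list a farther line can lie at a neighbour's start. The GATA3 line of 28.3 over RPS2, in the window of NDUFB10, counted as farther. Of 62 GATA3 lines in the windows of members with a listed start, 38 had a summit within 1 kb of a start, with a median signal of 7.69 and a maximum of 19.5. The other 24 had a median of 13.4 and a maximum of 35.0. Over all protein-coding genes the medians were 8.83 and 11.5, and 22.4% of the lines were near a start, against 61.3% in members. That share depends on window length, and the members' records are shorter, with a median of 9936 bp against 24103 bp. BHLHE40 showed no such gap, with medians of 9.36 for 68 lines near a start and 8.97 for 19 farther away (10.4 and 8.95 over all). H3K27ac was the reverse, with 6.89 for 103 lines near and 3.05 for 97 farther away, and so it was over all genes (5.28 and 3.17).

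Genes outside the rule that serve the same system were counted in record windows, where 58.8%, 44.4% and 75.0% of all protein-coding genes had BHLHE40, GATA3 and H3K27ac. Of 46 assembly factors of complexes I to V, 42 had BHLHE40, 28 GATA3 and 46 H3K27ac in their windows. COX10, which makes haem for complex IV, had the highest values of this list, 49.6 for BHLHE40 and 129.0 for GATA3. Of 8 carriers, all 8 had lines of each list. CYCS, cytochrome c, had 10.4, 9.13 and 7.47 for BHLHE40, GATA3 and H3K27ac, ETFB, an electron transfer flavoprotein subunit, had a GATA3 signal of 98.4, and the adenine nucleotide carrier SLC25A4 had a BHLHE40 signal of 28.1. Of 13 regulators of respiratory genes and mitochondrial transcription, 12 had BHLHE40, 9 GATA3 and 13 H3K27ac. NRF1 had signals of 22.3, 13.5 and 14.7, GABPB1 31.5, 22.2 and 8.71, and TFAM, which packs mitochondrial DNA, 12.9, 10.4 and 7.49. TEFM, an elongation factor of mitochondrial transcription, had no BHLHE40 line. The genes named in these 3 lists were picked after their values were seen.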

How the data were processed

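ChIP-seq was represented by 3 deposited peak lists in narrowPeak layout, each for a group of 2 samples grouped by title. MACS2, bcl2fastq 2.20 and the build hg38 are named in the submitters' processing notes, without roles; the aligner, filters and use of input are not given in the sources used here. Per the labels, the factor lists carry an irreproducible discovery rate threshold of 0.05 and the H3K27ac list is pooled. The deposited score is 540 to 1000 in the factor lists. The signal value and the −log10 q-value per line are the authors' deposited values. Depth is unknown, and no value is given for a single sample. The other 16 groups were not analysed here, and 1 marker gene of another cell type is not reported here.

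A line belonged to a gene when it overlapped the RefSeq record plus 2 kb by at least 1 bp, or lay within 1 kb of a start from the RefSeq promoter table (GRCh38.p14, 250 bases before to 50 after the start, matched by gene ID; 19 members had no entry). Positions are 1-based. Members are described beside all protein-coding genes, with 95% Wilson intervals and no test. Named genes were the highest signal per complex and list, the SDH genes and CYC1, genes without lines or without H3K27ac, genes with H3K27ac but no BHLHE40 at a start, the complex IV pairs, and the 5 genes each with the most lines and the closest summits. The members and lists were chosen with earlier results of these data known. Alternatives were other flanks, overlaps, score minimums, members and start windows. Python 3.11.15, numpy 2.4.6, pandas 2.3.3 and matplotlib 3.10.9 were used, and the counting was tested on simulated data.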

Additional observations from a re-analysis of the deposited data

How the results depend on the processing

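Of 60 alternatives to 10 values, 49 stayed within the counting interval of the value given and 11 moved outside it. Members stayed above all protein-coding genes in 56 of 57 alternatives to a share; in the exception, GATA3 lines scored at least 830 in record windows, the shares were 36.1% and 36.9%. Stricter lines also gave 29.9% for all 3 lists (29.0% of all protein-coding genes). For GATA3 they gave 26.9% at starts (16.8%) and, among genes with H3K27ac at a start, 28.4% (28.1%). A flank of 10 kb gave 69.1% for GATA3 (53.4%), 96.9% for H3K27ac (82.1%) and 64.9% for all 3 lists (46.5%). Without the tissue-limited relatives H3K27ac was at 97.8% of records (75.0%) and 100% of starts (57.6%). It was at 98.7% (71.1%) for records between the members' 10th and 90th length percentiles, and at 86.6% (56.3%) with either record end as start. Stricter lines hold fewer lines and a wider flank holds more by construction; the cause of the other moves was not tested. The start-based settings that use 1 start per gene, H3K27ac at the start, neighbours or members, and those without copies, were added after seeing the data. No paired analysis was possible because a group's samples come as 1 joint list, and for the same reason no replicate could be left out. Line counts depend on depth, which is unknown, so a gene without a line is not shown to lack the factor.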

Other observations

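The mitochondrial chromosome, which carries the remaining subunit genes of complexes I, III, IV and V and has no histones, held 12 BHLHE40, 1 GATA3 and 11 H3K27ac lines. Their signals were low, at 1.24 to 1.65 for BHLHE40, 1.33 for GATA3 and 1.22 to 2.62 for H3K27ac, against list medians of 9.35, 11.2 and 3.31. They enter no value of the members, but the listed chromosomes behind the shares of all protein-coding genes included the mitochondrial one.

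In a part of the members the strongest line also touched a neighbouring gene. The same count was not made over all protein-coding genes, so these shares cannot be called high or low. The strongest line overlapped another protein-coding record in 35 of 81 members for BHLHE40, 20 of 58 for GATA3 and 37 of 90 for H3K27ac. It lay wholly outside the member's own record in 4, 5 and 8. NDUFB6, an accessory subunit of complex I, was 1 such gene: its strongest lines of 15.3, 22.9 and 9.30 for BHLHE40, GATA3 and H3K27ac lay past its record and over those of TOPORS and SMIM27.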
